A study of Mus musculus with 10 samples.

Results

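The colony stimulating and growth factors described here are 7 secreted factors, chosen by gene symbol: Csf1, Csf2, Csf3, Inhba, Areg, Lif and Osm. The array platform's annotation pairs 9 of its 22690 probe sets with 5 of them, 4 with Csf1, 2 with Lif and 1 each with Csf2, Csf3 and Inhba, and Areg and Osm are not analysed here. All 5 genes were among the 7474 of 12393 genes that passed the filter on dim signals, which asked for a signal above the pooled median of all signals, 99.2, on at least 2 of the 10 arrays. Gene expression had been measured on 1 Affymetrix array per condition in dendritic cells, the antigen-presenting cells of the immune system, grown from mouse bone marrow. The CD14-deficient cells came from Cd14-/- C57BL/6 mice and the wild-type cells from C57BL/6 mice, both 6 to 8 weeks old. In each genotype, cells received 1 µg/ml smooth LPS with 50 nM thapsigargin for 48 or 60 h, or the same LPS alone for 48 or 60 h, or were left unstimulated and harvested 24 h after plating. LPS is the outer membrane lipid of Gram-negative bacteria, and CD14 is the receptor that hands it to TLR4. Thapsigargin raises cytosolic calcium by inhibiting SERCA, the pump that fills the endoplasmic reticulum with it, and the study's stated aim was to find apoptosis genes under the control of the calcium-dependent factor NFAT. No arm had thapsigargin alone, and the unstimulated cells were harvested earlier than the others, so LPS and time in culture cannot be told apart.

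Colony stimulating factors carry progenitors through growth into granulocytes, macrophages and dendritic cells. Csf1 encodes M-CSF, the survival and growth factor of macrophages, Csf2 encodes GM-CSF, which drives dendritic cell growth in culture, and Csf3 encodes G-CSF, which drives neutrophil production. Inhba encodes the subunit of activin A, a ligand of the TGF-beta family whose binding protein is follistatin, and Lif encodes a cytokine of the interleukin 6 family that signals through gp130 and STAT3. All cells here had been grown for 7 to 10 days in medium with 10% supernatant of B16 tumour cells transduced with GM-CSF, and were used when over 90% carried CD11c. The stimulation took place in IMDM complete medium, and the labels do not say that the supernatant was present then.

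The values are MAS5 signals, the linear intensity of a probe set after correction by its mismatch probes, scaled here to a common trimmed mean. A signal below 13.4, the pooled 25th percentile, was set to that floor before taking log2, and a fold against it is a lower bound. Differences are log2 changes ± the standard error of 1 limma model over all 10 arrays, and a gene was called at an adjusted p under 0.05 over the 7474 genes. No condition was repeated, so the error is the departure of the stimulated arrays from a common shift between 48 and 60 h, and the p-values say nothing of the variation among cultures or mice. In such bulk RNA, fewer cells of a type and less RNA per cell cannot be told apart.

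The 2 CD14-deficient LPS arrays differed from each other more than any other pair of times. Between 48 and 60 h, 1297 genes (17.4%) were 2-fold apart in CD14-deficient LPS cells and 491 (6.57%) in wild-type LPS cells, against at most 189 (2.53%) in either genotype with thapsigargin. The 48 h array had the lowest cRNA yield, 15 µg, and its macrophage marker list summed to 18414, against 23839 to 45607 on the other 9 arrays. The 60 h array was near the unstimulated ones in some genes: Itgax, which encodes CD11c, had 6941 there and 891.8 on the 48 h array, against 750.4 to 2921 on the other 6 stimulated arrays and 7838 and 7440 on the CD14-deficient and wild-type unstimulated arrays. Its 18S rRNA control probe sets lay at 6642 to 10022, against 114 to 385 on the 48 h array, 217 to 7417 on the other 6 stimulated arrays and 7886 to 12656 on the unstimulated ones. Which of the 2 departs from its condition cannot be told. Many fitted changes that use them are also given without each in turn, with the other left as a lone sample assumed to vary like the rest. Other fitted changes, the medians, the counts over both times and the fit of all probe sets are given with both arrays only. The error of the model is the disagreement between times, so leaving out either array of the pair that disagrees most makes most errors smaller by construction, and a lower p that follows is no added support. The scaled Cd14 signal lay between 1.849 and 7.354, below the floor, on all CD14-deficient arrays, and between 15540 and 17730 on the stimulated wild-type arrays. All 10 dendritic cell markers passed the filter, with sums of 24902 to 47093, whereas the 3 erythroid and 6 T and NK cell markers with a probe set stayed dim and were not tested, with Ncr1 at the floor on every array. The dendritic cell markers Cd209a and Clec10a were above the pooled median on the unstimulated arrays only. Of the macrophage markers, 9 of 10 passed the filter too, so these lists do not tell the 2 cell types apart.

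Promoter sequences were matched for 5 of the 7 factors in a RefSeq table of 300 bases a gene, 250 before to 50 after the start, in build GRCm38.p6, and Csf3 and Osm were not matched. Those of Csf1, Csf2, Inhba and Lif, 4 of the 5 measured factors, are shown because the study asked about NFAT and in each of these factors both thapsigargin arrays lay above both LPS arrays in at least one genotype. Csf1 lies at chr3:107760420-107760719 on the minus strand, Csf2 at chr11:54249850-54250149 on the minus strand, Inhba at chr13:16011601-16011900 on the plus strand and Lif at chr11:4257318-4257617 on the plus strand. The Inhba window lies inside the span of the gene, chr13:16004256-16031609, downstream of its first base. The sequences run 5′ to 3′ on the strand of the gene, and capitals mark GGAAA, the core of NFAT sites, or its complement TTTCC, and the AP-1 motif TGANTCA.
Csf1: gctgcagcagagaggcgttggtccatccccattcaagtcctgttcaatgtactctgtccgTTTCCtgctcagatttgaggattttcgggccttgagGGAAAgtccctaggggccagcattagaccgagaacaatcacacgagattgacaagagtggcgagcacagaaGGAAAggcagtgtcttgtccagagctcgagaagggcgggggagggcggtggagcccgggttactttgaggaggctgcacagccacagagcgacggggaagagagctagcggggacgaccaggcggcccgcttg
Csf2: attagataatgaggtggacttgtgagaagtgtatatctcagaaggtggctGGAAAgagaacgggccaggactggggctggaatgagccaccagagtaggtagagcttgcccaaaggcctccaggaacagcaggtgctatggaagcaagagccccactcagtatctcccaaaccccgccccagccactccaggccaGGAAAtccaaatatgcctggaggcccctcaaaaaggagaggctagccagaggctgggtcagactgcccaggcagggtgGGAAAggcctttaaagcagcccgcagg
Inhba: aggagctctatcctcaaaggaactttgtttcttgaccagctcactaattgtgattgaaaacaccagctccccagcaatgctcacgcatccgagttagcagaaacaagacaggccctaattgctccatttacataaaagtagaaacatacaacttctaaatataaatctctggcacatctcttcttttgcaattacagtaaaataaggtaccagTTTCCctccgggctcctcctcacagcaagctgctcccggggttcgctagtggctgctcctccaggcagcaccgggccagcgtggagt
Lif: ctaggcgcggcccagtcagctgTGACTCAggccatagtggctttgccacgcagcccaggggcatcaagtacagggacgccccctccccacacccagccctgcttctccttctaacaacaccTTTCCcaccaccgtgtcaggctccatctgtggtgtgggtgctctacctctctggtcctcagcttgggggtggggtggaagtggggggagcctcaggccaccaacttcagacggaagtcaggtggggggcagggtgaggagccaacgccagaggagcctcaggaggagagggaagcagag
The NFAT core occurred 3 times in the Csf1 promoter, 3 times in that of Csf2 and once each in those of Inhba, Lif and Areg. It is a short motif that 61.3% of all 32851 promoters in the table hold on one strand or the other. The AP-1 motif occurred once, in the Lif promoter, and in 7.8% of all promoters. A loose kappaB pattern, GGG and CC with any 5 bases between them, which overlapped an NFAT core in the Csf1 and Csf2 promoters, was found 5 times for Csf1, 4 times for Lif and once each for Csf2, Inhba and Areg, and 50.8% of all promoters hold it. Neither the CK-1 element of cytokine promoters, searched as GAG, any base, TTCC, any base and C, which 1.2% of all promoters hold, nor the STAT motif TTCNNNGAA (8.3%) was found in the 5 windows. A match is a description of letters in a window and shows no binding. Other starts of these genes were not searched, so the absence of a motif holds for these windows only.

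Csf3 had the widest range of the 5 factors. In CD14-deficient cells its signal was 362 at 48 h and 726 at 60 h with LPS and thapsigargin, 67.1 and 130 with LPS, and 20.1 unstimulated. In wild-type cells it was 1379 and 3995 with LPS and thapsigargin, 1837 and 3656 with LPS, and 5.52, below the floor, unstimulated. Every stimulated CD14-deficient array lay below every stimulated wild-type array, and within the CD14-deficient cells the arrays with thapsigargin lay above those without it. At both times, CD14-deficient LPS cells kept more Csf3 signal than their own unstimulated array.

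LPS raised Csf3 in both genotypes, to very different levels. In wild-type cells the change was at least 137-fold at 48 h and at least 273-fold at 60 h against the 1 unstimulated array, a fitted log2 change of 7.60 ± 0.28 and the third largest in size of 7474 genes (limma adjusted p = 0.000401). In CD14-deficient cells it was 3.35-fold at 48 h and 6.50-fold at 60 h, fitted as 2.22 ± 0.28 (adjusted p = 0.0203), and as 2.11 without the 48 h array and 2.33 without the 60 h array. With the floor at the 40th percentile, the CD14-deficient change was 1.16 (adjusted p = 0.0813). The wild-type call held in 17 of 17 alternative fits and the CD14-deficient one in 9, with an adjusted p of 0.165 without the time term and of 0.0598 to 0.0873 when any one stimulated array other than the CD14-deficient LPS ones was left out.

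Between the genotypes under LPS, Csf3 was 27.7-fold lower in CD14-deficient cells, by a log2 change of −4.79 ± 0.23 (limma adjusted p = 0.00168). The ratio hardly differed between the times, 27.4-fold at 48 h and 28.0-fold at 60 h, and Csf3 ranked 4th in size of 7474 genes. Leaving out the CD14-deficient LPS array at 48 h gave −4.90 ± 0.24 (adjusted p = 0.0023), and leaving out that at 60 h gave −4.68 ± 0.25 (adjusted p = 0.000628). Without the wild-type LPS array at 48 h or at 60 h, the values were −4.71 (adjusted p = 0.0635) and −4.88 (adjusted p = 0.0650). The difference between the LPS responses of the genotypes was −5.37 ± 0.39, the largest of 7474 genes in size, at an adjusted p of 0.0732, and it passed at −5.48 without the CD14-deficient 48 h LPS array (adjusted p = 0.0275) and at −5.26 without the 60 h one (adjusted p = 0.00566). The size of this difference depends on the floor, at which the wild-type unstimulated array was set.

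Thapsigargin raised Csf3 in CD14-deficient cells, by 5.40-fold at 48 h and 5.57-fold at 60 h, a log2 change of 2.45 ± 0.23 (limma adjusted p = 0.0109). It was 2.56 without the CD14-deficient 48 h LPS array and 2.35 without the 60 h one. The call was lost without either CD14-deficient thapsigargin array (adjusted p = 0.188 without that at 48 h, 0.182 without that at 60 h), without either wild-type thapsigargin array (0.0633 and 0.0630) and without the time term (0.0610). In wild-type cells the thapsigargin arrays overlapped the LPS arrays, with 0.751-fold at 48 h and 1.09-fold at 60 h, and the change was −0.14 ± 0.23 (adjusted p = 0.855). The difference of the thapsigargin effects between the genotypes, 2.60 ± 0.32, had an adjusted p of 0.163, and passed at 2.71 and 2.49 without the 48 h and the 60 h array (adjusted p = 0.0235 and 0.00796). Csf3 in CD14-deficient cells with thapsigargin was 0.197 and 0.199 times that in wild-type LPS cells at 48 and 60 h. Under LPS and thapsigargin in both genotypes it was lower in CD14-deficient cells by −2.19 ± 0.23, which did not pass the threshold (adjusted p = 0.0886, and 0.0192 or 0.0197 without either CD14-deficient LPS array, which changes only the error here). Both CD14-deficient LPS arrays enter the genotype comparison under LPS as well as the thapsigargin comparison in those cells, so the Csf3 values of the comparisons are not independent.

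**Figure D1:**
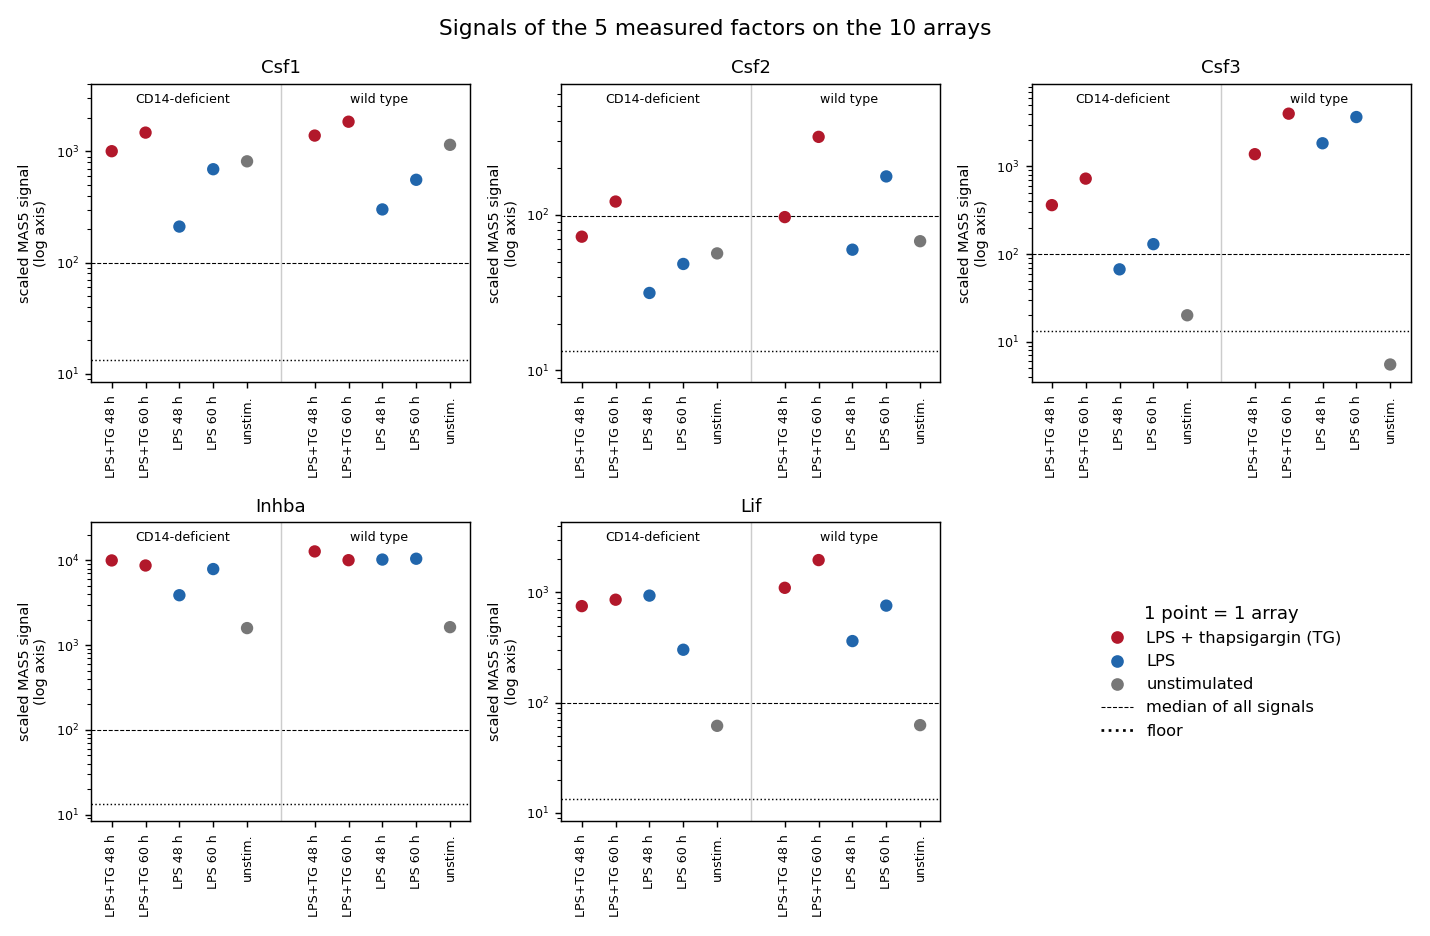
Scaled MAS5 signals of Csf1, Csf2, Csf3, Inhba and Lif on a log axis, 1 point per array, with CD14-deficient arrays left of wild-type arrays, treatments in colour, the pooled median of 99.2 dashed and the floor of 13.4 dotted. The CD14-deficient LPS arrays of Csf3 sit at 67.1 and 130, against 1837 and 3656 on the wild-type LPS arrays, and Csf1 is high on the 4 thapsigargin arrays.

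Csf1 moved differently: on its brighter pair of probe sets, the signal was lowest with LPS alone and high with thapsigargin in both genotypes. On the brightest probe set, 1460220_a_at, CD14-deficient cells had 1005 and 1477 at 48 and 60 h with LPS and thapsigargin, 211 and 692 with LPS, and 815 unstimulated. Wild-type cells had 1389 and 1851 with LPS and thapsigargin, 301 and 556 with LPS, and 1147 unstimulated. In either genotype both thapsigargin arrays lay above both LPS arrays and above the unstimulated array, and both LPS arrays lay below the unstimulated array.

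With thapsigargin, Csf1 was 4.77-fold higher at 48 h and 2.13-fold higher at 60 h in CD14-deficient cells, a log2 change of 1.67 ± 0.33 (limma adjusted p = 0.0429). The change was 1.13 without the CD14-deficient 48 h LPS array, on which all 4 Csf1 probe sets were at their lowest, and 2.22 without the 60 h one. The call held in 8 of 17 alternative fits and was lost without any one of the stimulated arrays other than the CD14-deficient LPS ones, at an adjusted p of 0.0862 or 0.0864 without a wild-type LPS array, 0.105 without either wild-type thapsigargin array, and 0.353 or 0.281 without the CD14-deficient thapsigargin array at 48 or 60 h. In wild-type cells the ratios were as large, 4.61-fold and 3.33-fold, and the change of 1.97 ± 0.33 ranked 52nd in size of 7474 genes. It did not pass the threshold (adjusted p = 0.157), where only 4 of 7474 genes did, and passed with the same change of 1.97 and a smaller error without either CD14-deficient LPS array (adjusted p = 0.00572 and 0.0059, beside 586 and 594 genes called). The effects differed between the genotypes by −0.30 ± 0.47 (adjusted p = 0.814). The LPS changes, −1.09 ± 0.41 in CD14-deficient cells (adjusted p = 0.190) and −1.49 ± 0.41 in wild-type cells (adjusted p = 0.0595), did not pass either. Without the 48 h and the 60 h CD14-deficient LPS array the first was −0.55 (adjusted p = 0.155) and −1.64 (adjusted p = 0.00438), and the wild-type one kept its size and passed (adjusted p = 0.00243 and 0.00257). Between the genotypes under LPS the change was −0.10 ± 0.33 (adjusted p = 0.870), and it was 0.45 without the 48 h array (adjusted p = 0.162) and −0.65 without the 60 h array (adjusted p = 0.0439).

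The 4 probe sets of Csf1 gave different values. The second, 1448914_a_at, ran with the first (Pearson r = 0.979 over the 10 arrays): it had 612 and 835 with LPS and thapsigargin, 95.1 and 351 with LPS and 425 unstimulated in CD14-deficient cells, and 1212 and 1187, 156 and 213, and 566 in wild-type cells. In a fit of all 11649 probe sets its thapsigargin change was 1.97 ± 0.45 in CD14-deficient cells (limma adjusted p = 0.0577) and 2.72 ± 0.45 in wild-type cells (adjusted p = 0.204). The dimmer pair, 1425154_a_at and 1425155_x_at, lay between 28.8 and 158 on all arrays. Their thapsigargin changes were 0.65 ± 0.56 (adjusted p = 0.490) and 1.48 ± 0.40 (adjusted p = 0.0793) in CD14-deficient cells, and 0.39 ± 0.56 and 0.49 ± 0.40 in wild-type cells. Their LPS changes were −0.68 ± 0.69 and −0.95 ± 0.49 in CD14-deficient cells, and 0.29 ± 0.69 and −0.08 ± 0.49 in wild-type cells. The wild-type LPS changes of the brighter pair were −1.49 ± 0.41 and −1.64 ± 0.55. Between the genotypes under LPS, the dimmer pair changed by −1.11 ± 0.56 and −1.06 ± 0.40, against −0.10 ± 0.33 on the first set. None of these passed the threshold. On 1425154_a_at, CD14-deficient cells had 84.9 and 81.5 with thapsigargin and 28.8 and 97.4 with LPS. The suffix _a marks probe sets that match several transcripts of a gene and _x those whose probes can bind other genes too, and the transcripts behind each set were not analysed here.

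**Figure D2:**
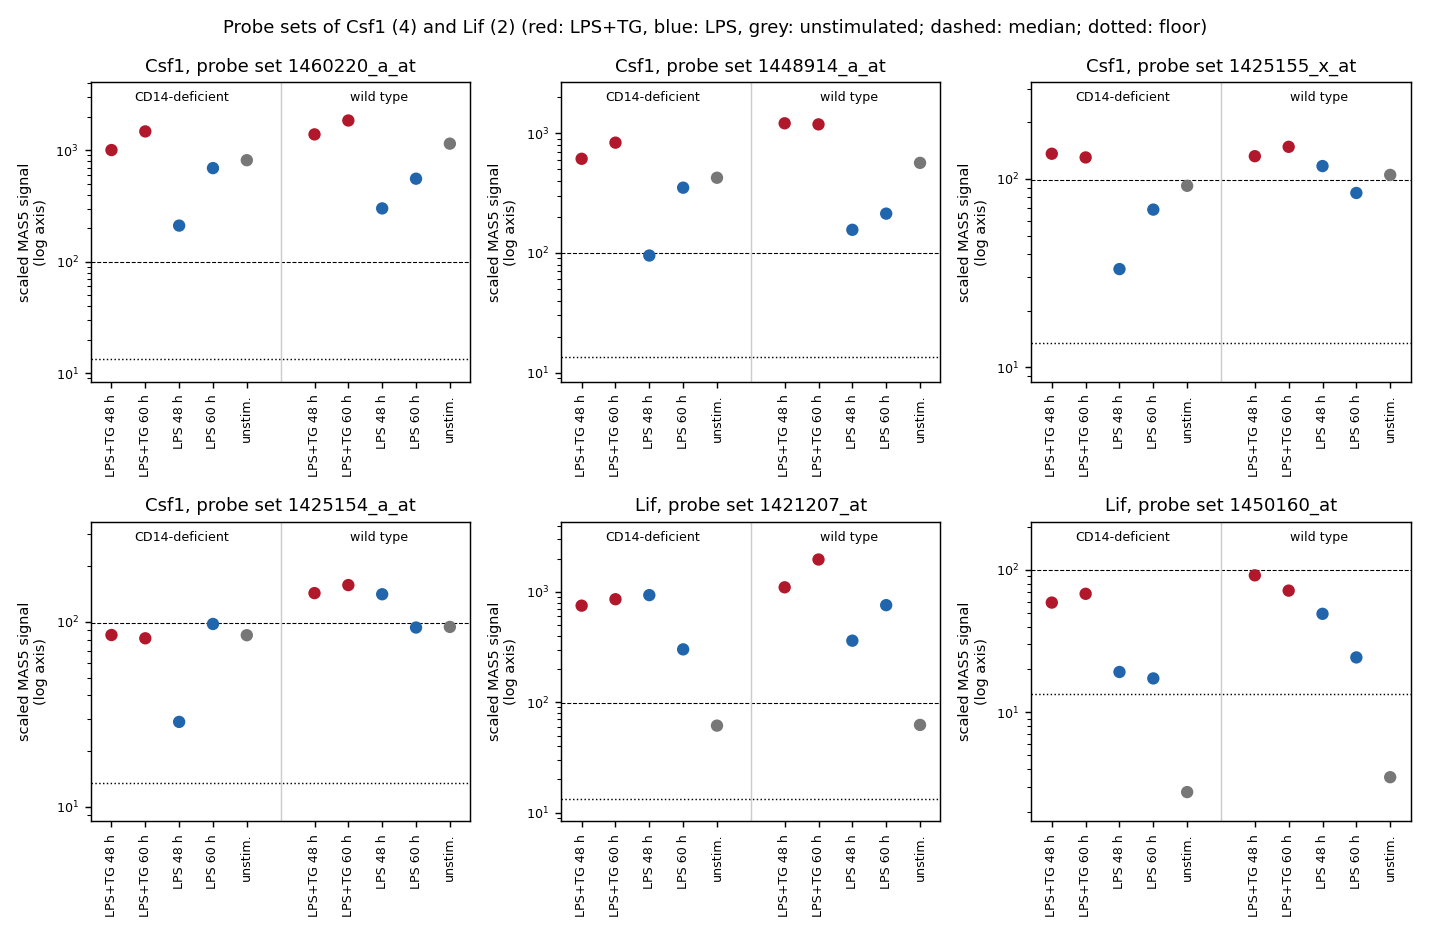
Scaled MAS5 signals on a log axis for the 4 probe sets of Csf1 and the 2 of Lif, 1 point per array, CD14-deficient left of wild type. In the 2 brighter Csf1 sets both thapsigargin arrays lie above both LPS arrays in each genotype, and the dimmer pair stays between 28.8 and 158.

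Csf2 stayed dim on most arrays and was above the pooled median on 3 of 10. Its signal in CD14-deficient cells was 72.5 and 122 at 48 and 60 h with LPS and thapsigargin, 31.5 and 48.4 with LPS, and 56.6 unstimulated. In wild-type cells it was 96.9 and 318 with LPS and thapsigargin, 59.8 and 177 with LPS, and 67.8 unstimulated. The 2 brightest arrays were the wild-type ones at 60 h, and the 2 dimmest were the CD14-deficient LPS arrays.

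No Csf2 change passed the threshold in the fit of all arrays. Under LPS its signal in CD14-deficient cells was 0.526 times that in wild-type cells at 48 h and 0.273 times at 60 h, a log2 change of −1.40 ± 0.37 (limma adjusted p = 0.0828). Thapsigargin changed it by 1.27 ± 0.37 in CD14-deficient cells (adjusted p = 0.0902), with 2.30-fold at 48 h and 2.52-fold at 60 h, and by 0.77 ± 0.37 in wild-type cells (adjusted p = 0.533), where the arrays overlapped. The genotype change was −1.76 (adjusted p = 0.0287) without the CD14-deficient 48 h LPS array and −1.04 (adjusted p = 0.0623) without the 60 h one. The thapsigargin change in CD14-deficient cells was 1.63 (adjusted p = 0.0241) and 0.91 (adjusted p = 0.0943) in those fits. LPS changed Csf2 by −0.54 ± 0.45 in CD14-deficient cells (adjusted p = 0.528) and 0.60 ± 0.45 in wild-type cells (adjusted p = 0.400).

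Inhba, which encodes the activin A subunit, responded to LPS in wild-type cells and had a large signal in every stimulated condition. In CD14-deficient cells it was 9963 and 8684 at 48 and 60 h with LPS and thapsigargin, 3873 and 7882 with LPS, and 1586 unstimulated. In wild-type cells it was 12732 and 10034 with LPS and thapsigargin, 10202 and 10437 with LPS, and 1627 unstimulated. The 8 stimulated arrays all lay above both unstimulated ones, and the CD14-deficient LPS array at 48 h was the lowest of the 8.

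LPS raised Inhba 6.34-fold in wild-type cells, a log2 change of 2.67 ± 0.41 (limma adjusted p = 0.0128), which held in 14 of 17 alternative fits. It did not pass without the wild-type LPS array at 48 h (adjusted p = 0.0770) or at 60 h (adjusted p = 0.0645), or with no filter (adjusted p = 0.0675). In CD14-deficient cells the change was 1.80 ± 0.41 (adjusted p = 0.0710), and it passed at 2.40 without the 48 h array (adjusted p = 0.00121) and at 1.20 without the 60 h one (adjusted p = 0.00339). Between the genotypes under LPS it was −0.90 ± 0.33 (adjusted p = 0.151), with 0.380 times the wild-type signal at 48 h and 0.755 times at 60 h. With thapsigargin the change was 0.75 ± 0.33 in CD14-deficient cells (adjusted p = 0.197) and 0.13 ± 0.33 in wild-type cells (adjusted p = 0.920), where the arrays overlapped. Under LPS and thapsigargin the genotypes differed by −0.28 ± 0.33. Without the CD14-deficient 48 h LPS array, the genotype change under LPS was −0.30 (adjusted p = 0.164) and the thapsigargin change in CD14-deficient cells 0.15 (adjusted p = 0.420). Without the 60 h one they were −1.50 (adjusted p = 0.00129) and 1.35 (adjusted p = 0.00254), so for Inhba both values depended on which array was used.

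Lif also rose with LPS in wild-type cells, and in CD14-deficient cells its 2 LPS arrays disagreed. On probe set 1421207_at, CD14-deficient cells had 752 and 860 at 48 and 60 h with LPS and thapsigargin, 937 and 302 with LPS, and 61.5 unstimulated. Wild-type cells had 1103 and 1970 with LPS and thapsigargin, 362 and 760 with LPS, and 62.4 unstimulated. All stimulated arrays lay above the unstimulated ones. The CD14-deficient LPS array was 2.59-fold above its wild-type partner at 48 h and 0.397 times it at 60 h.

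The wild-type LPS change of Lif was 3.07 ± 0.78, close to the threshold (limma adjusted p = 0.0497), and it passed in 5 of 17 alternative fits, where its adjusted p ran from 0.000909 to 0.176. In CD14-deficient cells the change was of like size, 3.11 ± 0.78, and did not pass (adjusted p = 0.0888). It was 1.94 (adjusted p = 0.0191) without the 48 h array and 4.28 (adjusted p = 0.001) without the 60 h one. Thapsigargin changed Lif by 0.60 ± 0.64 in CD14-deficient cells (adjusted p = 0.576), by 1.77 (adjusted p = 0.0119) without the 48 h LPS array and by −0.57 (adjusted p = 0.175) without the 60 h one, so its sign depended on the array used. Between the genotypes under LPS the change of 0.02 ± 0.64 became −1.15 (adjusted p = 0.0529) and 1.19 (adjusted p = 0.0243) in those fits. In wild-type cells its arrays lay above the LPS arrays, with 3.05-fold at 48 h and 2.59-fold at 60 h, and the change of 1.49 ± 0.64 had an adjusted p of 0.499, or 0.0242 and 0.0235 with only the error smaller when either CD14-deficient LPS array was left out. The second probe set, 1450160_at, was below the pooled median on all 10 arrays: it had 59.0 and 68.0 with LPS and thapsigargin, 19.2 and 17.3 with LPS and 2.75 unstimulated in CD14-deficient cells, and 91.7 and 71.6, 49.2 and 24.3, and 3.50 in wild-type cells. There the CD14-deficient LPS signal was below the wild-type one at 48 h, 0.391 times it, unlike on the first probe set.

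Counted together, 3 of the 5 tested factors (Csf3, Inhba and Lif) rose with LPS in wild-type cells and none fell, where 7.69% of all 7474 genes rose and 8.24% fell. In CD14-deficient cells 1 of 5 (Csf3) rose with LPS and none fell, where 2.17% of all genes rose and 2.01% fell. Inhba and Lif did not pass there, with changes of 1.80 and 3.11 against 2.67 and 3.07 in wild-type cells. Under LPS, 1 of 5 (Csf3) was lower in CD14-deficient than in wild-type cells, where 2.61% of all genes were lower and 2.57% higher. Under LPS and thapsigargin none of 5 differed between the genotypes past the threshold, and 0.0268% of all genes did, while limma gave 1 of 5 factors and 329 of all genes an unadjusted p under 0.05. With thapsigargin 2 of 5 (Csf1 and Csf3) rose in CD14-deficient cells, where 3.43% of all genes rose and 3.20% fell, and none of 5 in wild-type cells, where 0.0134% rose and 0.0401% fell (1 and 3 genes, against 1 and 16 with no scaling of the arrays). At an unadjusted p under 0.05, limma gave 3 of 5 factors in CD14-deficient cells and 1 of 5 in wild-type cells under thapsigargin, beside 2154 and 770 of all 7474 genes. Without the CD14-deficient 48 h LPS array, 4 of 5 factors passed under thapsigargin in CD14-deficient cells and 2 of 5 in wild-type cells, beside 28.8% and 7.84% of all genes in either direction. Without the 60 h one it was 3 of 5 and 2 of 5, beside 38.7% and 7.95%. Depending on which of the 8 stimulated arrays was left out, the number of factors called moved in those comparisons. It also moved for LPS in either genotype and between the genotypes under LPS. The number of all genes called moved as well, so such counts are no result about the factors alone.

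By size alone, 3 of 5 factors (Csf1, Csf2 and Csf3) were at least 2-fold higher with thapsigargin at both times in CD14-deficient cells, as were 2.77% of all genes, and 2 of 5 (Csf1 and Lif) in wild-type cells, as were 1.10%. At least 2-fold lower in CD14-deficient cells at both times was Csf3 alone of the 5, both under LPS, where 2.19% of all genes were, and under LPS with thapsigargin, where 0.549% were. With LPS against the unstimulated array, 3 of 5 (Csf3, Inhba and Lif) were at least 2-fold higher at both times in each genotype. So were 4.60% of all genes in CD14-deficient cells and 8.13% in wild-type cells. Csf1 was at least 2-fold lower with LPS at both times in wild-type cells, as were 9.74% of all genes. Both thapsigargin arrays lay above both LPS arrays for 4 of 5 factors in CD14-deficient cells and 2 of 5 in wild-type cells, shares that can be read against 26.9% and 31.8% of all genes. Both CD14-deficient LPS arrays lay below both wild-type LPS arrays for 3 of 5 factors (Csf2, Csf3 and Inhba), against 20.8% of all genes. With LPS and thapsigargin this held for 3 of 5 (Csf3, Inhba and Lif), against 23% of all genes. Csf2 was above the pooled median on no CD14-deficient LPS array and passed the filter through other arrays. That favours counting it as lower in CD14-deficient LPS cells and as higher with thapsigargin in CD14-deficient cells. The factors were also chosen with earlier results of these data known, which limits all these counts. The median log2 change of the 5 factors with thapsigargin was 1.27 in CD14-deficient cells and 0.77 in wild-type cells, beside medians of 0.00 and 0.11 over all genes. For LPS it was 1.80 in CD14-deficient cells and 2.67 in wild-type cells, beside 0.03 and −0.03 over all genes. For CD14-deficient against wild-type cells under LPS it was −0.90, beside 0.08 over all genes.

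**Figure D3:**
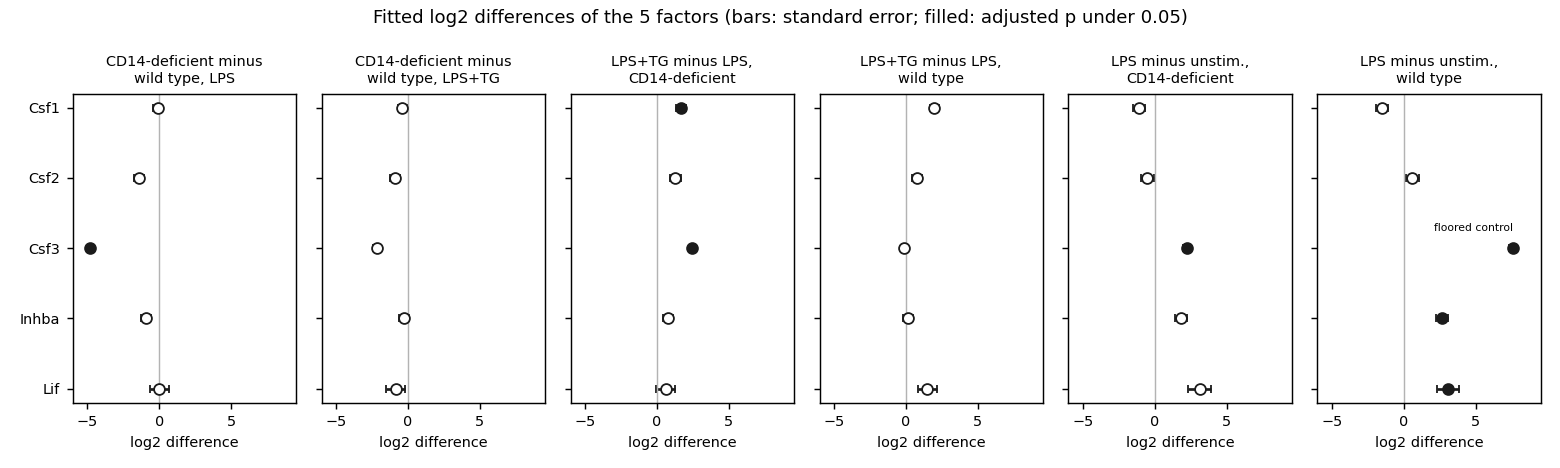
Fitted log2 differences of the 5 factors in 6 comparisons, with bars of 1 standard error and filled points where the limma adjusted p was under 0.05. Csf3 lies at −4.79 between the genotypes under LPS and at 2.45 for thapsigargin in CD14-deficient cells, against −0.14 in wild-type cells, and its wild-type LPS value of 7.60 is against an unstimulated array at the floor.

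Marker lists of other cell types moved along with these comparisons, and their part in the results was not tested. With LPS and thapsigargin in the CD14-deficient cells, and then in the wild-type cells, the neutrophil markers (5 of 8 tested, with Ltf, Mpo and Elane dim on all arrays) summed to 3243 to 4779 and 4116 to 4517, against 8436 to 8441 and 10409 to 12269 with LPS alone. The macrophage markers (9 of 10 tested, Cd163 at the floor) summed to 23839 to 28433 and 24365 to 29553 with thapsigargin, against 18414 to 33772 and 31733 to 37072 with LPS alone. The stromal markers (3 of 8 tested, with Col1a1, Col1a2, Col3a1, Pdgfrb and Sparc dim on all arrays) summed to 700 to 826 and 625 to 888, against 1814 to 2525 and 1405 to 3313. Neutrophil and stromal sums were thus lower with thapsigargin in both genotypes, and macrophage sums in wild-type cells, but single genes carried much of this. Of the neutrophil sums, Lcn2 made up 4011 and 2532 in CD14-deficient cells and 3848 and 3451 in wild-type cells with thapsigargin, against 6533 and 6172, and 8424 and 10460, with LPS. Of the stromal genes in wild-type cells, Dcn had 131 and 158.8 with thapsigargin against 921.3 and 2707 with LPS, while Fn1 had 338 and 608.7 against 280.5 and 378.3. Between the genotypes under LPS the B cell markers (2 of 5 tested, Cd79a and Pax5 dim) lay at 1600 to 2310 in CD14-deficient cells and 234 to 652 in wild-type cells, the dendritic cell markers at 37973 to 47093 and 24902 to 28819, and the neutrophil markers at 8436 to 8441 and 10409 to 12269. Single genes carried much of this too. Ighm made up 1789 and 1364 of the CD14-deficient B cell sums at 48 and 60 h. Of the dendritic cell markers, Ccr7 had 16170 in CD14-deficient against 3531 in wild-type cells at 48 h. Itgax had 6941 against 1002 at 60 h, but 891.8 against 2921 at 48 h.

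From 48 to 60 h, none of the 5 factors passed the threshold, and none of the 7474 genes did (limma, 3 of 5 and 734 of all at an unadjusted p under 0.05). Csf3 was nonetheless higher at 60 h in each of the 4 stimulated conditions, by 2.00-fold and 1.94-fold in CD14-deficient cells with and without thapsigargin and by 2.90-fold and 1.99-fold in wild-type cells with and without it. The time term of Csf3 was 1.12 ± 0.16 (adjusted p = 0.399), that of Csf2 1.16 ± 0.26 (adjusted p = 0.399) and that of Csf1 0.89 ± 0.24 (adjusted p = 0.429). Inhba and Lif had 0.13 ± 0.23 and 0.12 ± 0.45. The Csf3 term passed at 1.18 without either CD14-deficient LPS array (adjusted p = 0.0465 and 0.0462). In unstimulated cells, with 1 array each, no factor differed between the genotypes past the threshold (limma, 0 of 5 at an unadjusted p under 0.05), where 0.0134% of all genes did. Csf1 in CD14-deficient cells was 0.711 times that in wild-type cells, and the Csf3 ratio of CD14-deficient over wild-type cells, against the floored wild-type array, was at least 1.50.

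Of the 16 receptor genes of these factors, 10 passed the filter, and 1 was called in any of these comparisons. Lifr, the ligand-binding chain for Lif, was lower in CD14-deficient than in wild-type cells under LPS by −1.70 ± 0.30 (limma adjusted p = 0.0387, held in 8 of 16 alternative fits), where 2.61% of all genes were lower. It was −1.85 without the CD14-deficient 48 h LPS array and −1.55 without the 60 h one. Its signals were dim, 41.12 and 31.93 in CD14-deficient LPS cells against 106.8 and 129.8 in wild-type LPS cells. The unstimulated arrays ran the other way, at 129.2 in CD14-deficient cells and 51.24 in wild-type cells. Lifr was above the pooled median only on the wild-type LPS arrays and the CD14-deficient unstimulated array. Without the wild-type LPS arrays it would not have been tested, so the filter favours this call. The receptor of M-CSF, Csf1r, and the GM-CSF receptor chain Csf2ra, named after their values were seen, were not called: with thapsigargin Csf2ra had 675.4 and 599.9 in CD14-deficient and 887.4 and 818.2 in wild-type cells, against 1120 and 1861, and 1452 and 1351, with LPS. Csf1r had 5170 and 4812 with thapsigargin against 4199 and 9905 with LPS in CD14-deficient cells, and 6783 and 5961 against 10100 and 9420 in wild-type cells. The G-CSF receptor gene Csf3r did not pass the filter.

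Fst, which encodes the activin antagonist follistatin, was called in 2 comparisons among the 6 tested of 14 inhibitors and processing genes. In CD14-deficient cells it had 24.0 and 45.01 with LPS and thapsigargin, 97.81 and 655.5 with LPS, and 51.38 unstimulated. In wild-type cells it had 28.59 and 33.88 with LPS and thapsigargin, 296.6 and 549.4 with LPS, and 38.96 unstimulated. LPS raised Fst in wild-type cells by 3.37 ± 0.72 (limma adjusted p = 0.0326) and thapsigargin lowered it in CD14-deficient cells by −2.95 ± 0.59 (adjusted p = 0.0436), where 3.20% of all genes fell. These calls held in 7 and 6 of 16 alternative fits. Fst was above the pooled median on no unstimulated or thapsigargin array, only on arrays with LPS alone. It thus passed the filter through the treatment in which it was high, which favours both calls. The thapsigargin change was −3.98 without the CD14-deficient 48 h LPS array and −1.91 without the 60 h one, and its adjusted p reached 0.341 over the alternatives. On the 4 thapsigargin arrays Fst lay between 24.0 and 45.01, near its unstimulated signals, while Inhba lay between 8684 and 12732 there. Errfi1, a feedback inhibitor of EGF receptors, was the other gene of this list called with LPS, at 1.43 ± 0.32 in wild-type cells (adjusted p = 0.0371, held in 9 of 17).

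Among related ligands, 2 of 3 tested genes of the interleukin 6 family rose with LPS in both genotypes, where 2.17% of all genes rose in CD14-deficient cells and 7.69% in wild-type cells. Il6 had 8829 and 4347 in CD14-deficient LPS cells against 71.22 unstimulated, and 9791 and 13010 in wild-type LPS cells against 119.3 unstimulated. Its LPS changes were 6.44 ± 0.42 in CD14-deficient cells (limma adjusted p = 0.00396) and 6.56 ± 0.42 in wild-type cells (adjusted p = 0.00161), both held in 17 of 17 alternative fits, and they differed between the genotypes by −0.12 ± 0.60 (adjusted p = 0.964). Ebi3, a subunit of interleukins 27 and 35, rose by 1.89 ± 0.36 in CD14-deficient cells (adjusted p = 0.0488) and by 1.91 ± 0.36 in wild-type cells (adjusted p = 0.0235), held in 6 and 10 of 17. Without the 48 h and the 60 h array, the CD14-deficient changes were 5.82 and 7.07 for Il6 and 1.41 and 2.38 for Ebi3. None of the 3 tested EGF family ligands was called.

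One of the other haematopoietic growth factors passed the filter: Il15, a growth factor of NK and memory T cells. LPS raised it by 1.78 ± 0.30 in CD14-deficient cells (limma adjusted p = 0.0387) and by 1.20 ± 0.30 in wild-type cells (adjusted p = 0.0492), and thapsigargin raised it in CD14-deficient cells by 1.33 ± 0.25 (adjusted p = 0.0354). These calls held in 9, 4 and 8 of 17 alternative fits. Without the 48 h and the 60 h LPS array, the CD14-deficient changes of Il15 were 1.41 and 2.15 with LPS and 1.71 and 0.96 with thapsigargin. Its signals with thapsigargin were 2258 and 1424 in CD14-deficient and 2231 and 1587 in wild-type cells, against 1113 and 454.6, and 978.2 and 705.2, with LPS. Of 12 tested other growth factors, 2 rose and none fell with LPS in CD14-deficient cells, where 2.17% of all genes rose and 2.01% fell, and 3 rose and 2 fell in wild-type cells, where 7.69% rose and 8.24% fell. Vegfa, the main vascular growth factor, rose by 2.22 ± 0.33 in CD14-deficient cells (adjusted p = 0.0281) and by 3.65 ± 0.33 in wild-type cells (adjusted p = 0.00402), held in 10 and 17 of 17. Tgfb2 rose by 3.72 ± 0.46 in CD14-deficient cells and 3.39 ± 0.46 in wild-type cells, Bmp2, named after its value was seen, by 2.95 ± 0.67 in wild-type cells, and Vegfb and Pdgfa fell by 1.27 each in wild-type cells, calls that held in 9 to 15 of 16 or 17 alternative fits. In CD14-deficient cells without the 48 h and the 60 h LPS array, Vegfa changed by 1.85 and 2.58 and Tgfb2 by 3.19 and 4.24.

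**Figure D4:**
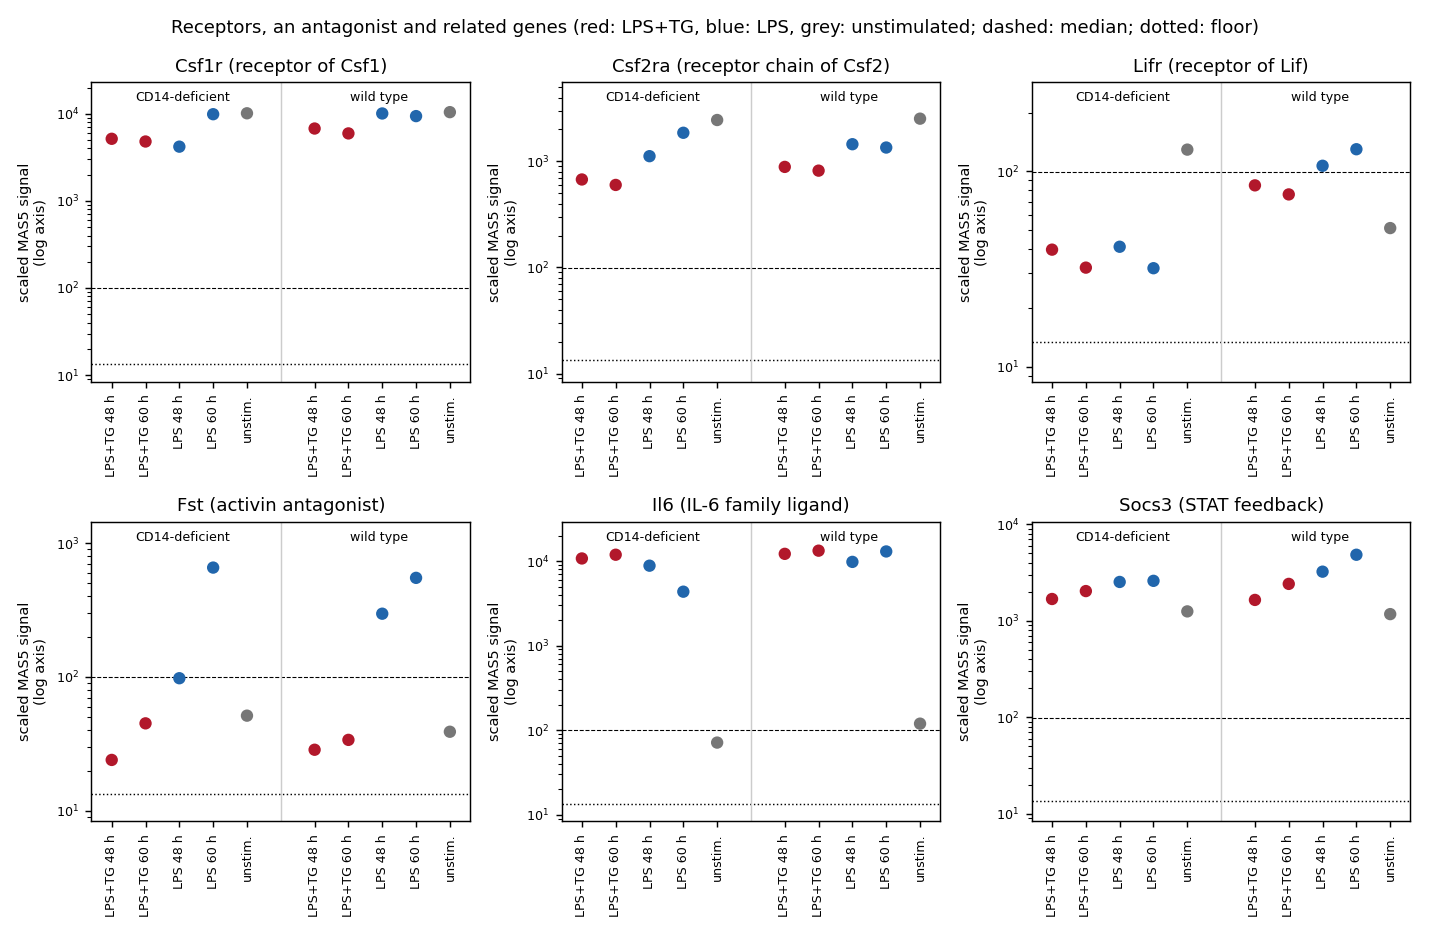
Scaled MAS5 signals on a log axis for 2 receptors of the colony stimulating factors, the Lif receptor chain Lifr, the activin antagonist Fst, Il6 and Socs3, 1 point per array, CD14-deficient left of wild type. The 4 thapsigargin arrays of Fst sit between 24.0 and 45.01, against 97.81 to 655.5 on the 4 LPS arrays.

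A list of 10 tested genes of STAT signalling mixed feedback targets with genes of STATs and of a kinase upstream of them. Of these, 2 rose with LPS in wild-type cells, where 7.69% of all genes rose, and none in CD14-deficient cells, where 2.17% rose. Their median change with LPS was 0.88 in CD14-deficient cells and 0.29 in wild-type cells, beside 0.03 and −0.03 over all genes, and with thapsigargin −0.65 and −0.15, beside 0.00 and 0.11. The CD14-deficient medians use both LPS arrays of that genotype, which disagreed, and are not given without each. Socs3, a feedback inhibitor of gp130 and G-CSF receptor signalling, had 2533 and 2601 in CD14-deficient LPS cells and 3238 and 4849 in wild-type LPS cells, against 1254 and 1175 unstimulated. Its change was 1.75 ± 0.23 in wild-type cells (limma adjusted p = 0.00953, held in 15 of 17 alternative fits). Pim1, a kinase gene induced by STATs, rose with LPS in wild-type cells by 0.80 ± 0.17 (adjusted p = 0.0296) and with thapsigargin in CD14-deficient cells by 1.00 ± 0.14 (adjusted p = 0.0187). In wild-type cells Pim1 had 6402 and 4456 with thapsigargin against 4591 and 3575 with LPS, and was not called. Socs2 was higher in CD14-deficient than in wild-type cells under LPS by 1.03 ± 0.20 (adjusted p = 0.0457), at 11240 and 7598 against 4349 and 4731. The Pim1 calls held in 8 and 10 of 17 alternative fits and that of Socs2 in 7. Without the CD14-deficient 48 h and 60 h LPS arrays, the thapsigargin change of Pim1 was 0.96 and 1.04 and the genotype change of Socs2 0.76 and 1.29.

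The genes whose floored log2 signals followed each factor most closely over the 10 arrays were taken from the 7469 other tested genes, as a description in which all genes share the contrast of stimulated and unstimulated arrays. For Csf3 they were Ptges, the prostaglandin E synthase gene, with a Pearson r of 0.977, and Ghdc and Rdh12, both with 0.971. For Inhba they were Grina (0.992), Dnajc1 (0.983) and the neutrophil attractant Cxcl2 (0.983), and for Lif the AP-1 family gene Jdp2 (0.985), the MAP kinase phosphatase gene Dusp16 (0.981) and the integrin gene Itgav (0.978). Csf1 was nearest to Afg1l (0.974), Exosc1 (0.963) and Mtdh (0.962), and Csf2, the dimmest factor, to Hus1 (0.935), Zfand2a (0.920) and Nkiras1 (0.891). Between the factors, Csf3 and Inhba had an r of 0.902 and Inhba and Lif 0.827, whereas Csf1 had 0.144 with Csf3 and 0.106 with Inhba.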

How the data were processed

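RNA of 10 cultures was measured on 1 Affymetrix array each. The deposited values are linear MAS5 intensity signals per probe set, per the submitters' processing notes. Neither the version of MAS5 nor its scaling target is given in the sources used here. Of 22690 probe sets, 20380 have 1 gene symbol in the platform annotation, 691 several and 1619 none. Each array was scaled to a common 2% trimmed mean of 509 (deposited trimmed means 444 to 553), signals were floored at the pooled 25th percentile, 13.4, and the brightest probe set per gene was kept, which left 7474 of 12393 genes above the pooled median on at least 2 arrays. limma 3.58.1 under R 4.3.3 fitted 6 levels of genotype and treatment and a time term, with an intensity trend in eBayes, 3 degrees of freedom left for the residuals and 2.95 added by the prior. Tests were two-sided, with Benjamini-Hochberg adjustment. The fit was tested on data simulated from its own model with independent noise, which cannot test the common time shift or the variation among cultures. The factors and gene lists were chosen with earlier results of these data known. List genes are named where they passed the threshold, at most the 4 smallest adjusted p per list and comparison, with the 3 genes nearest to each factor by Pearson r. The 17 alternatives were no scaling, quantile normalization, log2(signal + 16), a floor at the 40th percentile, no filter, a filter on 5 arrays, all probe sets, no trend, no time term, and each stimulated array left out in turn. With 10 arrays, precision is limited by their number.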

Additional observations from a re-analysis of the deposited data

Results flagged for a closer look

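Lif, on its brighter probe set, was picked out because the difference between the genotypes under LPS ran in opposite directions at the 2 times, by at least 2-fold each. CD14-deficient cells had 937 at 48 h against 362 in wild-type cells, a log2 difference of 1.37. They had 302 at 60 h against 760 in wild-type cells, a log2 difference of −1.33. With 1 array a group this was not tested.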

How the results depend on the processing

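No paired analysis was possible because each condition has 1 array and the labels give no replicate numbers. Over the 17 alternatives, each of the 7 called changes of the factors kept its direction, and that of Csf3 with LPS in wild-type cells was called in all 17. The number of factors called for LPS in wild-type cells was 1 with no filter and 1 to 4 with 1 array left out, against 3. For LPS in CD14-deficient cells it was 2 with no scaling, 0 with the floor at the 40th percentile and 0 to 4 with 1 array left out, against 1. Between the genotypes under LPS it was 0 to 4 with 1 array left out, against 1. For thapsigargin in CD14-deficient cells it was 1 with the higher floor, 1 with no filter, 0 with no time term and 0 to 4 with 1 array left out, against 2, and in wild-type cells 0 to 2, against 0. With 1 array left out it was 0 to 1 between the genotypes under LPS and thapsigargin, 0 to 3 for the difference of thapsigargin effects, 0 to 2 for the difference of LPS responses and 0 to 1 for time, all against 0, and with no filter it was 1 for the difference of LPS responses. The cause was not tested.

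Signs turned among uncalled changes. With 1 array left out, the genotype difference under LPS ran from −0.65 to 0.45 for Csf1 (−0.10 with all arrays) and from −1.15 to 1.19 for Lif (0.02), and the difference of LPS responses from −0.16 to 0.94 for Csf1 (0.39) and from −1.13 to 1.21 for Lif (0.04). The extremes of both comparisons came without one of the CD14-deficient LPS arrays. Quantile normalization turned the same values of Lif to −0.07 and −0.01. The thapsigargin change in wild-type cells ran from −0.42 to 0.13 for Csf3 and from −0.18 to 0.45 for Inhba, and Inhba between the genotypes with thapsigargin from −0.60 to 0.03. That of Lif in CD14-deficient cells ran from −0.57 to 1.77. The difference of thapsigargin effects ran from −0.85 to 0.25 for Csf1 and from −2.06 to 0.28 for Lif, and the time term from −0.17 to 0.29 for Inhba and from −0.20 to 0.70 for Lif. Unstimulated Csf3 differed by 0.00 with the higher floor.

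Of all genes, the number called for thapsigargin in CD14-deficient cells was 153 with no filter and 782 of all probe sets, against 495, for the genotype difference under LPS 105 with no filter, against 387, and for LPS in CD14-deficient cells 155 with the filter on 5 arrays, against 312. No filter gave 192 for the difference of LPS responses and 5 for that of thapsigargin effects, against 0 each, and 176 between the unstimulated arrays, against 1. For thapsigargin in wild-type cells 1 gene was higher and 3 lower, against 1 and 16 with no scaling, 0 and 3 with quantile normalization and 5 and 7 without the trend. With 1 array left out the counts ran from 170 to 3281 for LPS in wild-type cells, 22 to 2883 for LPS in CD14-deficient cells, 2 to 3309 between the genotypes under LPS, 0 to 2894 and 0 to 594 for thapsigargin in CD14-deficient and wild-type cells, and 0 to 1367 for the difference of LPS responses. No scaling moved the median over all genes to 0.27, against 0.06, for the difference of LPS responses, to 0.16, against 0.03, for LPS in CD14-deficient cells, to −0.16, against 0.01, between the unstimulated arrays and to 0.15, against 0.05, for time. Csf2 was above the pooled median on 3 of 10 arrays, which limits what its ratios can show.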
